A study of Mus musculus with 4 samples.

Results

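The genes described here encode the claudins, the tricellular and scaffold proteins and the polarity proteins of the tight junction, and their RNA levels were compared between organs of Corti of Sox2-Tbx2LOF embryos, in which Tbx2 was deleted, and control organs of Corti. They were chosen as 35 symbols, and a gene entered when an array probe carried its name, with the brightest probe standing for the gene. Of the 35 symbols, 34 had a probe among 27487 named genes, and 31 of them were tested among 19971 tested genes, which were 72.7% of all named genes. The organ of Corti is the epithelium in which the hair cells for hearing lie, and the study asked what the transcription factor TBX2 does in its inner part. Embryos were of the NMRI strain and were labelled Sox2(creERT2);Tbx2(fl/fl), the genotype named Sox2-Tbx2LOF, or Tbx2(fl/n.d.), which served as controls and lacked the recombinase. The labels leave the second Tbx2 allele of controls undetermined, while by the methods the floxed allele came homozygous from both parents, and the mothers also carried R26 mTmG, a reporter allele. CreERT2 was knocked into the Sox2 gene, so that recombination was limited to cells that express Sox2 and so that mutants, but not controls, had 1 Sox2 allele occupied by the recombinase. All dams received 4 mg of tamoxifen at E16.5, with progesterone given in addition. The basal portions were dissected at E18.5, freed of the spiral ligament and the spiral ganglia as the methods state, and combined into 4 sex-sorted pools per genotype, and each of 4 dual-colour Agilent arrays compared 1 Sox2-Tbx2LOF pool with 1 control pool. Arrays 1 and 2 held female pools and arrays 3 and 4 male pools, and Sox2-Tbx2LOF RNA was labelled with Cy3 for arrays 1 and 3 and with Cy5 for arrays 2 and 4.

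Tight junctions close the gap between neighbouring epithelial cells near their apical surface. Claudins span the membrane as strands that seal the gap or form ion-selective pores, occludin and its relatives and the angulins arrange these strands, above all where several cells meet, and plaque proteins such as ZO-1 tie them to actin. In the organ of Corti, the junctions between hair cells and supporting cells make up the reticular lamina, which keeps potassium-rich endolymph apart from the fluid around the cell bodies, and mutations of several of these genes cause deafness.

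No tight junction gene passed the test for a difference between Sox2-Tbx2LOF and control pools. By limma on the log2 ratio of Sox2-Tbx2LOF over control, 0 of 31 genes had a Benjamini-Hochberg adjusted p under 0.05 together with a change of at least 1.5-fold, where 0.285% of all tested genes did. At an adjusted p under 0.05 without a fold limit the count was also 0, against 1.16% of all tested genes. At an unadjusted p under 0.05 it was 3 genes (Cldn5 and Cldn1 higher, Ildr1 lower), against 7.88% of all tested genes (3.87% higher and 4.02% lower). That count was 1 without array 2, 1 without array 3 and 1 without the dye term, and 4 with the authors' processed values. A test of the 8 pools without pairing them by array gave 0 calls and 1 gene at an unadjusted p under 0.05. SAM, the test named in the study's methods, also called 0, in a version written here with its own delta. Both calls required at least 1.5-fold, which no fitted ratio of the 31 genes reached, so the fold limit alone set these counts to 0. The fitted log2 ratios ran from -0.11 (Ildr1) to 0.21 (Cldn5), with a median of 0.01 over the 31 genes and of 0.00 over all tested genes. The sign was positive for 17 genes and negative for 14.

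A missed threshold does not show equal levels, so 95% intervals of the ratio are given for the limma fit. They hold for the background correction and normalization used here and do not cover other processing. For Cldn1 the scanner software's own log2 ratio gave 0.33, above the fitted interval of 0.03 to 0.29. All 31 intervals lay within 1.5-fold in either direction, as did 99.3% of the intervals of all tested genes. The lowest bound was 0.859-fold for Ildr1 and the highest 1.28-fold for Cldn4. For 29 of the 31 genes the interval also lay within 1.23-fold, which was the case for 94.7% of all tested genes. In 27 of the 31 genes the SD between arrays was larger than the size of the mean log2 ratio itself. That SD includes the dye difference between arrays, which the fit takes out. For Cldn10 the SD was 0.26 and the SE of the fit 0.05. The share over all tested genes was not computed.

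**Figure D1:**
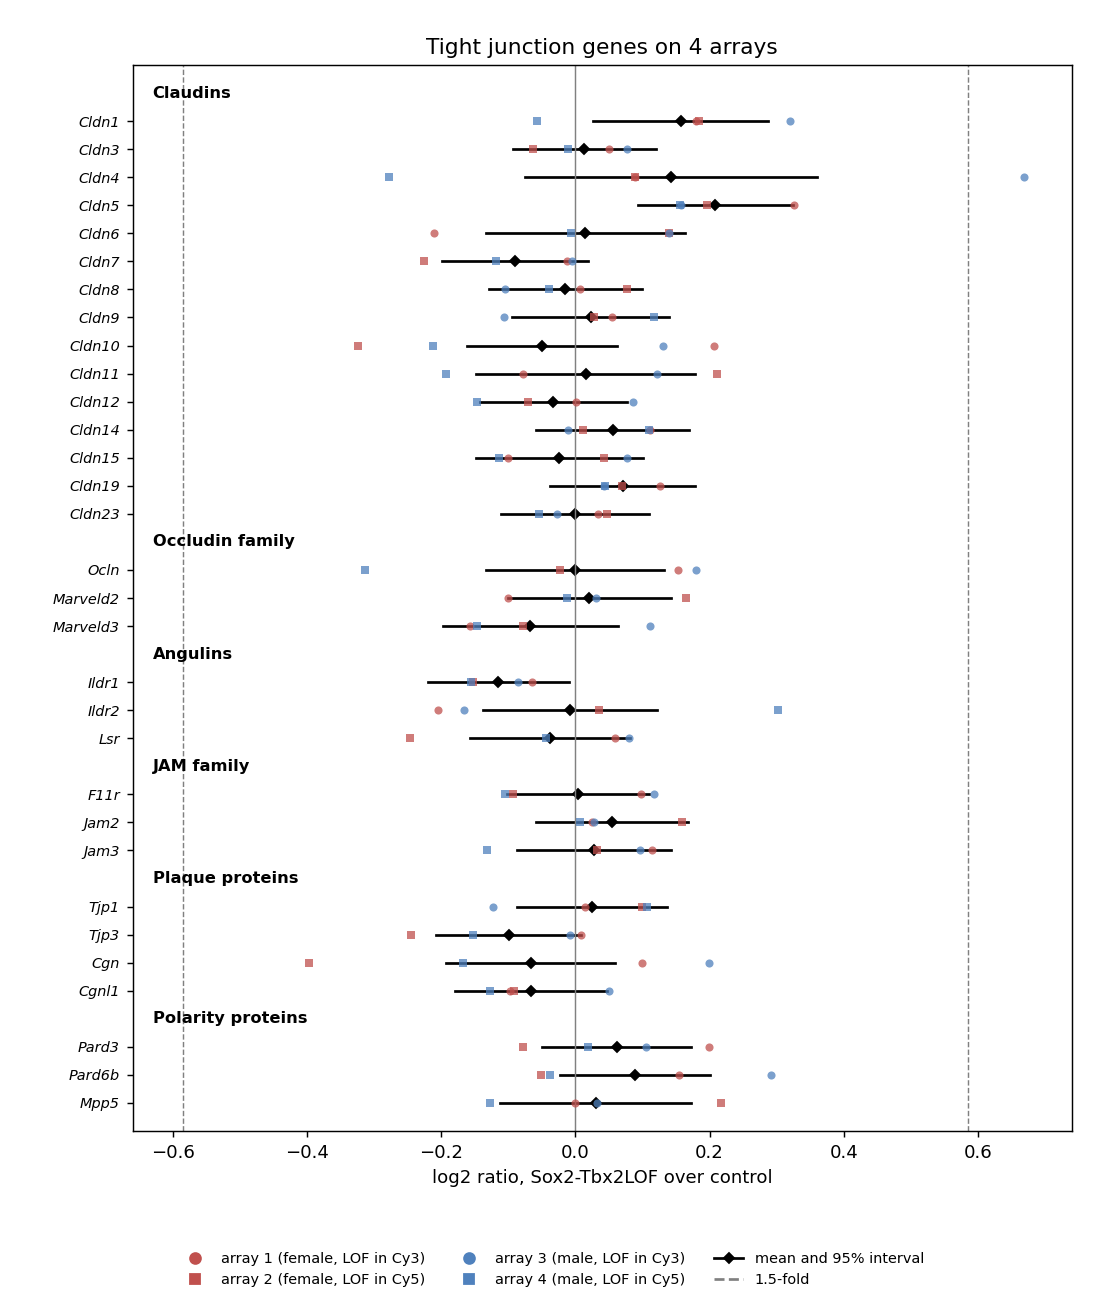
Log2 ratio of Sox2-Tbx2LOF over control for the 31 tested tight junction genes on 4 arrays (coloured points), with the mean and its 95% interval (black) and dashed lines at 1.5-fold. Every interval lies between the dashed lines, and a single array value, Cldn4 on array 3 at 0.67, lies beyond them.

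Arrays were alike in quality, with 3.23% to 3.56% of spots flagged and 0 saturated. All 4 arrays shared 1 slide and 1 scan. The defining markers of the labelled tissue were present, since all 6 hair cell genes and all 7 supporting cell genes examined were well above background. Of the supporting cell genes, whose cells share junctions with hair cells, 5 of 7 were above 0 with a median log2 ratio of 0.10. At an adjusted p under 0.05 there were 0, and at an unadjusted p under 0.05 there were 3, against 7.88% of all tested genes. These were Sox2 (0.23), Prox1 (0.17) and S100a1 (0.11), all higher. Sox2 carries the recombinase in mutants only, and the study used S100A1 to mark inner hair cells as well. The summed level of the 7 genes was 96754 to 101999 intensity units in Sox2-Tbx2LOF pools and 91869 to 100295 in control pools. The part of supporting cells in the levels of the tight junction genes was not tested. Of the 5 inner hair cell genes (Fgf8, Slc17a8, Otof, Cabp2 and Tbx2), all 5 were lower in Sox2-Tbx2LOF. All but Tbx2, 4 genes, passed at an adjusted p under 0.05. Tbx2 was the deleted gene, and the study had listed Fgf8, Slc17a8 and Cabp2 as reduced on the same E18.5 arrays. Lower levels of Tbx2, Fgf8, Slc17a8 and Cabp2 were thus given in advance and are no independent result. Otof, which the study's text does not name, had a fitted log2 ratio of -0.40 (limma, adjusted p = 0.01). It was on a list chosen with earlier results of these data known. Of the 5 outer hair cell genes, Slc26a5 was not well above background and the other 4 were tested, with 0 at an adjusted p under 0.05 and 1 at an unadjusted p under 0.05. The Tbx2 probe itself gave log2 ratios of -0.06, -0.24, -0.02 and -0.30 on arrays 1 to 4, a mean of -0.15 (SE 0.05, adjusted p = 0.313). Whether that probe lies in the deleted part is not given in the sources used here.

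Among claudins, Cldn5 and Cldn1 had the highest fitted ratios and neither passed the adjusted threshold. The 15 tested claudins had a median log2 ratio of 0.01, with 9 above 0 and 6 below. Cldn2, Cldn16 and Cldn18 were not well above background on any array in either group. Cldn2 forms pores for cations in leaky epithelia, Cldn16 acts in magnesium uptake in the kidney, and Cldn18 belongs to stomach and lung epithelium.

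Cldn5, the claudin of endothelial tight junctions and of the blood-brain barrier, had a normalized log2 level of 13.094 in the Sox2-Tbx2LOF pool of array 1 and of 12.9991 to 13.0139 in those of arrays 2 to 4, against 12.77, 12.82, 12.85 and 12.84 in the control pools of arrays 1 to 4. All 4 Sox2-Tbx2LOF pools were above all 4 control pools, a separation in this direction that 1.33% of tested genes showed. The log2 ratios were 0.33, 0.20, 0.16 and 0.16, with a fitted value of 0.21 (SE 0.05, 95% interval 0.09 to 0.32) at an adjusted p of 0.145. The probe lies on chromosome 16 from 18778046 to 18778105 (mm9), as the scanner files give it. Endothelial markers stood beside it with all 5 of 5 above 0 (Cdh5, Kdr, Pecam1, Tek and Tie1), a median log2 ratio of 0.05 and 0 at an unadjusted p under 0.05. Their summed level was 8247 to 9155 intensity units in Sox2-Tbx2LOF pools and 8037 to 9051 in control pools, so that the groups overlapped. All 5 were above background, and their part in the Cldn5 result was not tested. In pooled tissue, a change in the number of cells of a type and a change in RNA per cell cannot be told apart.

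Cldn1, best known for the water barrier of the skin, had log2 levels of 6.93, 7.07, 7.34 and 6.99 in Sox2-Tbx2LOF pools against 6.75, 6.88, 7.02 and 7.05 in control pools. The Sox2-Tbx2LOF pool was the higher on arrays 1 to 3 and the lower on array 4, and the groups overlapped. The fitted log2 ratio was 0.16 (SE 0.06, 95% interval 0.03 to 0.29), with an adjusted p of 0.503. Its probe, on chromosome 16 from 26357372 to 26357431 (mm9), was well above background on 4 of 4 arrays in both groups. The log2 ratio was 0.10 without array 2 (adjusted p = 1) and 0.33 by the scanner software's own ratio (adjusted p = 0.233).

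Cldn4, a sealing claudin of many epithelia, had the widest interval of the 31 genes. The log2 ratios of its brightest probe were 0.09, 0.09, 0.67 and -0.28 on arrays 1 to 4. The female arrays agreed closely, while the male arrays gave the highest and the lowest value. The fitted value was 0.14 (95% interval -0.07 to 0.36, adjusted p = 1), and without array 3 it was -0.00. A second tested Cldn4 probe gave log2 ratios of 0.19, 0.13, 0.20 and -0.07, with a fitted value of 0.11 (95% interval -0.01 to 0.23, adjusted p = 0.778), so that the high value of array 3 was seen with the brightest probe and not with the other. The level at the brightest probe varied most among the control pools, where the SD of 0.29 (n = 4) was the largest of any tight junction gene.

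**Figure D2:**
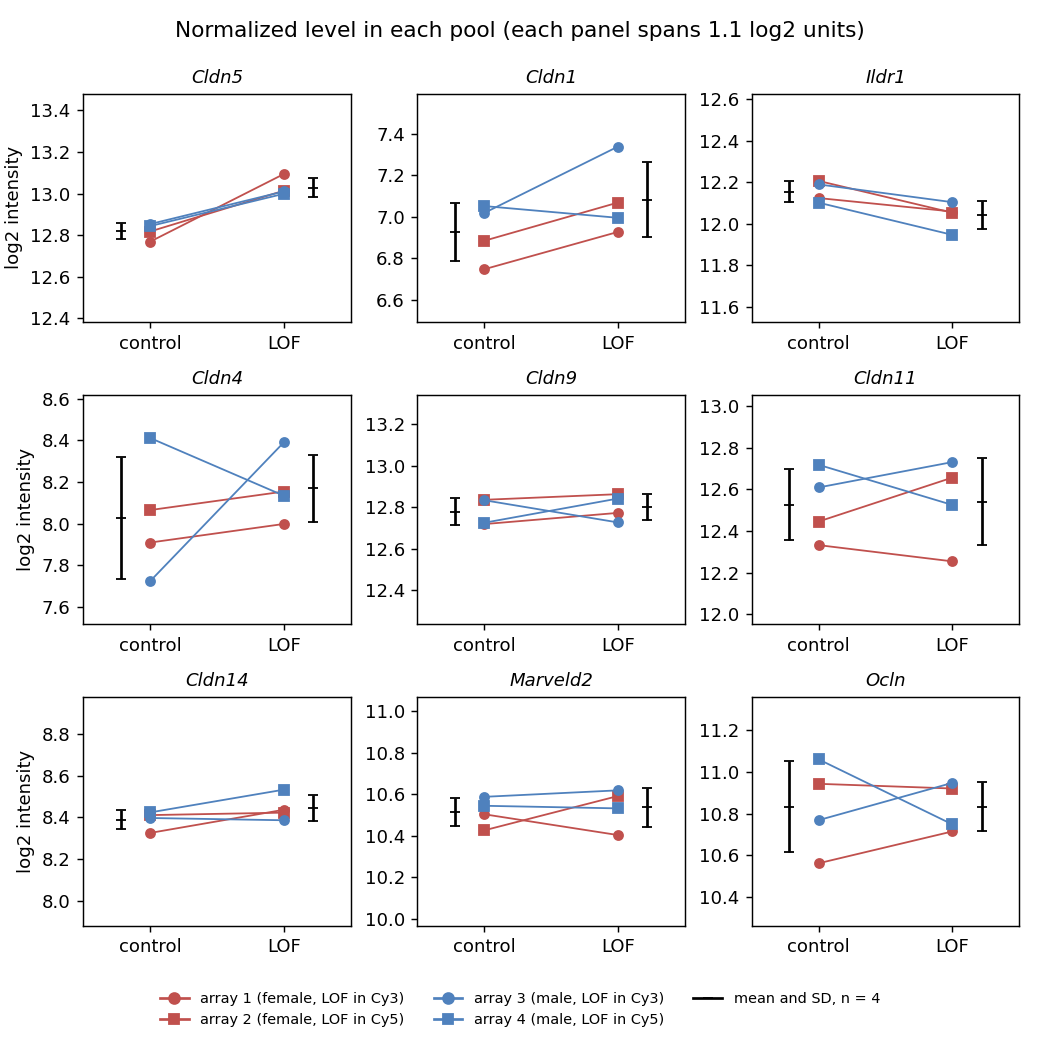
Normalized log2 intensity of 9 tight junction genes in the 4 control pools and 4 Sox2-Tbx2LOF pools, where lines join the pools of an array and bars show the mean and SD (n = 4). Cldn5 is the panel in which the groups do not overlap, and the pools of Cldn4 and Ocln cross between arrays.

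Loss of Cldn9, Cldn11 or Cldn14 is known to impair hearing. Cldn14 and Cldn9 belong to the junctions of hair cells and supporting cells, while Cldn11 forms the junctions between basal cells of the stria vascularis. Cldn14 gave log2 levels of 8.44, 8.42, 8.39 and 8.53 in Sox2-Tbx2LOF pools and 8.33, 8.41, 8.40 and 8.42 in control pools. The ranges overlapped, with a fitted log2 ratio of 0.06 (95% interval -0.06 to 0.17, adjusted p = 1), which was 0.02 without array 1, 0.09 without array 3 and 0.03 without array 4. Cldn9 gave 12.77, 12.86, 12.73 and 12.84 against 12.72, 12.84, 12.83 and 12.72, again overlapping, and the fitted log2 ratio was 0.02 (95% interval -0.09 to 0.14, adjusted p = 1).

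Cldn11 had log2 levels of 12.25, 12.66, 12.73 and 12.53 in Sox2-Tbx2LOF pools and 12.33, 12.45, 12.61 and 12.72 in control pools. The lowest pool of either genotype was on array 1, and the SD of 0.21 (n = 4) among Sox2-Tbx2LOF pools was the largest of any tight junction gene in that group. The fitted log2 ratio was 0.02 (95% interval -0.15 to 0.18, adjusted p = 1). Markers of stria marginal cells and of melanocytes, which lie beside the basal cells, stood beside it as follows. Of the 5 marginal cell genes, Kcne1 was not well above background and the other 4 had a summed level of 61019 to 69775 in Sox2-Tbx2LOF pools and 60981 to 65079 in control pools. Of the 5 melanocyte genes, Tyrp1 was not well above background and the other 4 had a summed level of 13395 to 16732 against 14493 to 15993. Such sums follow the brightest genes, Slc12a2 for marginal cells (mean log2 brightness 15.61) and Kcnj10 for melanocytes (13.41). Whether the Slc12a2 and Kcnj10 RNA came from those cells was not tested. The dimmer melanocyte gene Dct (11.83) gave log2 ratios of -0.44, -0.32, -0.82 and 0.80 on arrays 1 to 4. Its SD among control pools was 0.56, so melanocyte RNA was not shown to be even across pools. Tyr (7.22) and Mlana (7.12) were dimmer still. The part of marginal cells and melanocytes in the Cldn11 levels was not tested.

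The other tested claudins lay close to 0. Cldn7, found along the side of many epithelial cells, was the lowest at -0.09 (95% interval -0.20 to 0.02, adjusted p = 0.895), with log2 ratios of -0.01, -0.22, -0.01 and -0.12 that were negative on all 4 arrays. Cldn19, which acts with Cldn16 in the kidney and is also made by Schwann cells, had log2 levels of 6.74, 6.75, 6.77 and 6.78 in Sox2-Tbx2LOF pools against 6.61, 6.68, 6.73 and 6.73 in control pools. Its probe was the dimmest of the 31 tested genes, at a mean log2 brightness of 6.72. It was well above background on 4 arrays in Sox2-Tbx2LOF and on 3 in controls. The Cldn19 groups did not overlap, yet the fitted log2 ratio was 0.07 (95% interval -0.04 to 0.18). Schwann cell genes stood beside it with 4 of 5 above 0, a summed level of 107700 to 119338 in Sox2-Tbx2LOF pools and 104561 to 123629 in control pools, and all 5 above background; their part was not tested. Cldn10, a pore-forming claudin, gave 0.21, -0.32, 0.13 and -0.21, so that its sign followed the dye. Cldn3, Cldn6, Cldn8, Cldn12, Cldn15 and Cldn23 had fitted log2 ratios between -0.03 and 0.01, and all their intervals included 0.

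Occludin and its relatives, which share the MARVEL membrane domain, had a median log2 ratio of -0.00 over 3 genes. Ocln encodes occludin, whose absence deafens mice. Its log2 levels were 10.71, 10.92, 10.95 and 10.75 in Sox2-Tbx2LOF pools and 10.56, 10.94, 10.77 and 11.06 in control pools. The groups overlapped throughout, and the fitted log2 ratio was -0.00 (95% interval -0.13 to 0.13, adjusted p = 1). A second, dimmer Ocln probe gave -0.07. Marveld2 encodes tricellulin, the protein of corners where cells meet, whose mutation causes human deafness. Its levels were 10.40, 10.59, 10.62 and 10.53 against 10.50, 10.43, 10.59 and 10.54, overlapping, with a fitted log2 ratio of 0.02 (95% interval -0.10 to 0.14, adjusted p = 1). Marveld3 was at -0.07 (95% interval -0.20 to 0.06).

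The angulins recruit tricellulin to the corners, and all 3 had fitted log2 ratios below 0, with a median of -0.04. Ildr1, whose mutation also causes human deafness, had log2 levels of 12.06, 12.05, 12.10 and 11.95 in Sox2-Tbx2LOF pools and 12.12, 12.21, 12.19 and 12.10 in control pools. It was lower in Sox2-Tbx2LOF on 4 of 4 arrays, with log2 ratios of -0.06, -0.15, -0.09 and -0.15, while the ranges of the groups overlapped slightly. The fitted log2 ratio was -0.11 (SE 0.05, 95% interval -0.22 to -0.01), with an adjusted p of 0.618. Its probe lies on chromosome 16 from 36726704 to 36726763 (mm9). Lsr, the angulin of most epithelia, was at -0.04 (95% interval -0.16 to 0.08), and Ildr2 was at -0.01 (95% interval -0.14 to 0.12).

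The adhesion molecules F11r (JAM-A), Jam2 and Jam3, which sit at the junction as immunoglobulin-like proteins, had log2 ratios of 0.00, 0.05 and 0.03. Their intervals ran from -0.10 at the lowest to 0.17 at the highest. Jam2 was above 0 on 4 of 4 arrays, with 0.16 on array 2 and 0.01 to 0.03 on the others. A second, dimmer Jam2 probe gave 0.02, 0.17, -0.04 and 0.03 on arrays 1 to 4, so that its sign was not the same throughout.

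The plaque proteins had a median log2 ratio of -0.07 over 4 genes. Tjp3, encoding ZO-3, was the lowest at -0.10 (95% interval -0.21 to 0.01, adjusted p = 0.801), with 0.01 and -0.01 on arrays 1 and 3 and -0.24 and -0.15 on arrays 2 and 4. The lower values were thus those of the arrays with Sox2-Tbx2LOF in Cy5. Tjp1, encoding ZO-1, was at 0.02 (95% interval -0.09 to 0.14). Cingulin (Cgn) and paracingulin (Cgnl1), which link the plaque to actin and myosin, were both at -0.07.

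The polarity proteins place the junction along the cell, and the 3 tested genes had a median log2 ratio of 0.06. Pard6b was at 0.09 (95% interval -0.02 to 0.20), Pard3 at 0.06 (95% interval -0.05 to 0.17) and Mpp5, which encodes PALS1 of the Crumbs complex, at 0.03 (95% interval -0.11 to 0.17). Pard3 had 4 tested probes, with log2 ratios of 0.06, 0.07, 0.02 and 0.13. No tight junction gene had tested probes that differed by more than 0.3 on the log2 scale. The symbol Patj, a partner of PALS1, had no probe of that name, and RefSeq lists the older name Inadl for it. The brightest of 6 Inadl probes gave -0.06 (95% interval -0.18 to 0.05), and it was kept apart from the 31 tested genes.

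**Figure D3:**
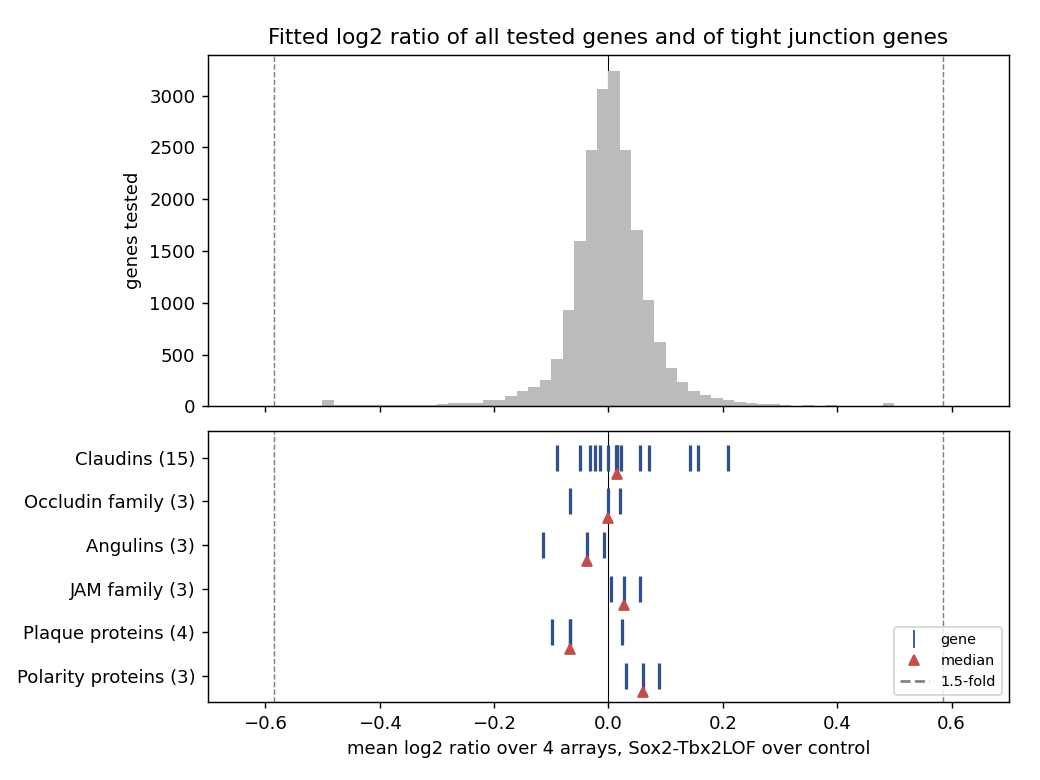
Fitted log2 ratio of all 19971 tested genes as a histogram (top, outermost bins hold all genes beyond 0.5) and of the 31 tight junction genes by group (bottom, ticks for genes and triangles for medians, with the number of genes in brackets). The group medians lie between -0.07 and 0.06, while single genes run from Ildr1 at -0.11 to Cldn5 at 0.21, in the upper tail.

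Fitted log2 ratios under 0.1 in size were found for 27 of the 31 genes (87.1%), against 88.1% of all tested genes, and 94% of all tested genes lay between the lowest and the highest tight junction gene. The SD between pools ran from 0.02 (Cldn19) to 0.21 (Cldn11) in Sox2-Tbx2LOF and from 0.01 (Cldn23) to 0.29 (Cldn4) in controls, on the log2 scale. A gene with the same sign on all 4 arrays was found 5 times, above 0 for Cldn5, Cldn19 and Jam2 and below 0 for Cldn7 and Ildr1, where 9.36% of all tested genes had the same sign. Groups of pools did not overlap for 2 genes (Cldn5 and Cldn19, both higher in Sox2-Tbx2LOF), against 2.82% of tested genes in either direction. Of these, Cldn19 had the dimmest probe of the 31 genes.

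The number of the 31 genes above 0 was 21 on array 1, 17 on array 2, 22 on array 3 and 8 on array 4, and the median log2 ratios were 0.03, 0.03, 0.08 and -0.06. On the same arrays 52.6%, 47.2%, 53.3% and 46.8% of all tested genes were above 0. Signs followed the dye in 9 of the 31 genes, against 33% of all tested genes. Of these 9, Cldn3, Cldn10, Cldn12, Ocln, Lsr, F11r, Cgn and Pard6b were higher where the Sox2-Tbx2LOF pool was in Cy3, and Ildr2 was higher where it was in Cy5. The dye term, fitted beside the genotype, passed an adjusted p under 0.05 for 1 of them, Cldn10 (adjusted p = 0.0496), against 4.22% of all tested genes. As each genotype was in Cy3 on 2 arrays and in Cy5 on 2 arrays, a dye effect cancels in the mean.

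**Figure D4:**
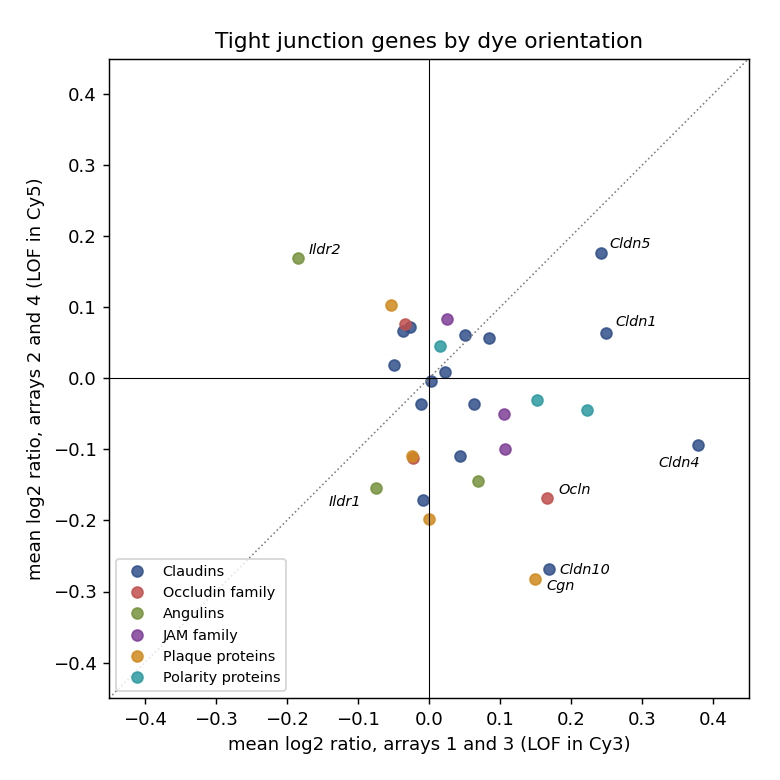
Mean log2 ratio of each of the 31 tight junction genes on arrays 1 and 3 (Sox2-Tbx2LOF in Cy3, horizontal) and on arrays 2 and 4 (Sox2-Tbx2LOF in Cy5, vertical), with a dotted line where both are equal. Cldn5 and Cldn1 lie in the upper right quadrant and Ildr1 in the lower left, while Cldn10, Cgn and Ocln lie where the orientations have opposite signs.

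Female and male pools were compared for the same genes by the difference of their log2 ratios. None of the 31 genes passed at an adjusted p under 0.05, and 0 were at an unadjusted p under 0.05, where 0 and 1.98% of all tested genes were by the same limma fit. The difference of female minus male log2 ratios was lowest for Cgn at -0.16 and highest for Mpp5 at 0.16. For Cldn5 the mean log2 ratio was 0.26 in female pools and 0.16 in male pools. With 2 arrays per sex, this comparison has little precision.

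TBX2 is a T-box factor and binds DNA through short T-box elements, so the promoters of the tight junction genes were searched for the core GGTGTG and for the longer GGTGTGA and AGGTGTGA, all on both strands and each contained in the next. Sequences were those of RefSeq (GRCm38.p6), and the 250 bases before each start were read. A promoter was listed for 27 of the 34 genes. The core was present for 4 of these 27 genes, or 14.8%, against 18.3% of all genes listed. GGTGTGA was present for Cldn18 alone, and AGGTGTGA for none, against 3.84% and 1.3% of all genes. The windows below show the 4 genes with a core, in capitals, where CACACC is the core read on the opposite strand.
Ocln, chr13:100552651-100552690, minus strand: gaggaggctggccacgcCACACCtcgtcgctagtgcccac
Ocln, a further start, chr13:100552876-100552915, minus strand: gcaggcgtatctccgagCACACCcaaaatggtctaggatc
Tjp3, chr10:81291604-81291656, minus strand: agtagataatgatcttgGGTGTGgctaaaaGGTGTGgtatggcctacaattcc
Pard6b, chr2:168080866-168080905, plus strand: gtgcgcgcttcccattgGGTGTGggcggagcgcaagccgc
Cldn18, chr9:99717318-99717357, minus strand: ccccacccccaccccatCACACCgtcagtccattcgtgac
A match of letters is a description and not a binding site. The RNA of the genes concerned was at -0.00 for Ocln, -0.10 for Tjp3 and 0.09 for Pard6b on the log2 scale, each with an interval that includes 0, and Cldn18 was not above background. Cldn5, Cldn1 and Ildr1 had no core in this window.

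Other genes of the junction were examined by the same fit. Of 40 further junction genes with a probe, which include rarer claudins, other adhesion molecules, other plaque and Crumbs complex proteins and Inadl, 38 were tested and 0 had an adjusted p under 0.05, while 3 had an unadjusted p under 0.05. Their median log2 ratio was -0.02. The lowest was Igsf5 (JAM-4) at -0.21 (95% interval -0.32 to -0.11, adjusted p = 0.0979), followed by Cldn22 at -0.16 (adjusted p = 0.553), and the highest was Crb2, a Crumbs protein, at 0.14 (adjusted p = 0.444). Adherens junctions lie below the tight junction, and 0 of 7 tested genes had an adjusted or an unadjusted p under 0.05, with a median of 0.01. Cdh1, the cadherin of the outer compartment, was at 0.12 (95% interval -0.01 to 0.25). Cdh2, that of the inner compartment, was at -0.05 (95% interval -0.18 to 0.07). By immunofluorescence at the same stage, the study found CDH1 unchanged and CDH2 strongly reduced within the inner compartment. Those stainings show protein in part of the tissue, while the values here are RNA of all the dissected tissue.

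Tissue around the epithelium also carries junction genes, and its markers were examined although the spiral ligament and ganglia had been removed. Of 6 mesenchyme genes, 5 were above 0, with a median log2 ratio of 0.13 and 3 at an unadjusted p under 0.05. Their summed level was 154222 to 167392 in Sox2-Tbx2LOF pools and 128872 to 166540 in control pools. Of 5 neuronal genes 0 had an unadjusted p under 0.05. All mesenchyme and neuronal genes were above background, and the part of these cells in the levels of the tight junction genes was not tested.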

How the data were processed

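RNA of 4 pools per genotype was hybridised to 4 Agilent mouse arrays. The scanner output that was deposited gives intensity values of spots, linear in scale, made by the authors with Agilent Feature Extraction 10.7.3.1 and not normalized, and the same deposited files hold a log10 ratio of Cy5 over Cy3 that the scanner software had background-corrected and dye-normalized. The authors also deposited a processed score per probe, a signed fold value that was used as an alternative. Each array holds 4 spots for most probes, which share an RNA extract and were averaged. Intensities were background-corrected by normexp (offset 50) and loess-normalized with limma 3.58.1 in R 4.3.3, after which control and flagged spots were left out. Of 39429 probes, 28079 were tested, those well above background on at least 3 arrays in either group. The log2 ratio of Sox2-Tbx2LOF over control was fitted with a dye term, and p-values were adjusted over all tested probes by Benjamini-Hochberg. Levels are normalized log2 intensity values per channel. Array data carry no read depth, and the number of arrays limits the precision. The fit was tested on simulated data. The genes and lists were chosen with earlier results of these data known. Genes named with values passed an adjusted or unadjusted p under 0.05, had the 3 largest ratios in either direction, or were Cldn9, Cldn11, Cldn14, Marveld2, Ildr1 or Ocln; the remaining tight junction genes are given in brief by group. Probe positions are mm9 as deposited, and promoter positions are GRCm38.p6.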

Additional observations from a re-analysis of the deposited data

Results flagged for a closer look

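Each of the 93 sets of 4 values (the level in either genotype and the log2 ratio of the 31 genes) was examined for an array far from the others, and 4 were found, where chance gives about 1 in 20. The Cldn5 level of the Sox2-Tbx2LOF pool on array 1 was 13.094, with the others between 12.9991 and 13.0139, and without array 1 the Cldn5 log2 ratio was 0.17. The Cldn23 level of the control pool on array 1 was 7.672, with the others between 7.699 and 7.7039. The Jam2 log2 ratio on array 2 was 0.1594, with the others between 0.0062 and 0.0272. The Mpp5 level of the Sox2-Tbx2LOF pool on array 4 was 10.0549, with the others between 10.4045 and 10.4683.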

How the results depend on the processing

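The count of tight junction genes called was 0 under all 17 alternatives run, and the count at an adjusted p under 0.05 was 0 under all 15 in which it was computed, as was that of the other junction genes under 14. These covered background correction, normalization, the filter on dim probes, the dye and sex terms, the probe of a gene, unpaired limma, SAM and leaving out each array. A call also required a minimum fold of 1.5 or 1.2, which no fitted ratio of these genes reached. The counts of 0 calls therefore add nothing to the counts by adjusted p. The difference between the sexes kept its count of 0 under both alternatives. The lowest adjusted p of any tight junction gene was 0.0986, for Cldn5 (range 0.0986 to 0.548). The median log2 ratio of the 31 genes stayed between -0.01 and 0.04, where 0.04 came from female arrays alone and 0.00 from male arrays alone, both chosen after seeing the data. The fit is paired by array, and without the pairing (unpaired limma) 0 tight junction genes were called. The count of all tested probes called was 70, and it was 124 with the scanner software's ratio and 2 with the authors' processed values; leaving out single arrays gave 66 to 106, the highest without array 1, and the cause was not tested.

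Fitted log2 ratios near 0 changed sign for some genes. Ocln was 0.0221 with median centring in place of loess, and leaving out single arrays gave -0.0733 to 0.0719 for Ocln, -0.0176 to 0.0629 for Cldn9, -0.0857 to 0.1166 for Cldn11, -0.0235 to 0.0654 for Marveld2 and -0.0024 to 0.2869 for Cldn4. None of these genes passed an adjusted p under 0.05 in those settings. Cldn14 ranged from 0.0249 to 0.0861 and Cldn1 from 0.0965 (without array 2) to 0.2168 when single arrays were left out. The count of tight junction genes at an unadjusted p under 0.05, 3 in the report, was 1 to 4 over these alternatives.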
